A study of Mus musculus with 9 samples.

Results

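Txnip, the arrestin-domain genes Arrdc3 and Arrdc4, and the glucose-sensing transcription factor genes Mlx and Mlxip were followed across resting and activated mouse CD4+ T cells. The 5 genes were taken by their GENCODE M21 symbols and matched to the Ensembl identifiers of the deposited count table, which holds 47937 identifiers. All 5 matched and all 5 were among the 12536 genes with enough counts to test. The series holds 9 RNA-seq libraries, 3 in each of 3 groups, numbered 1, 4 and 5 in every group. All come from CD4+ T cells that were isolated magnetically from spleens of C57BL/6 mice. The first group was activated with plate-bound antibodies to CD3 and CD28 after 15 min with TEPP-46, a small-molecule activator of the glycolytic enzyme PKM2, at a labelled dose of 50 to 100 µM that is not given per library. The second group was activated in the same way with the solvent DMSO, and the third is labelled as resting cells. The labels give no genetic modification, animal age or length of activation, and do not say whether the libraries came from separate animals, so every p-value below measures only the spread between these libraries.

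TXNIP and the ARRDC proteins are alpha-arrestins, adaptors that bring ubiquitin ligases of the NEDD4 family to membrane proteins such as receptors and transporters. TXNIP and ARRDC4 reduce glucose uptake, and TXNIP also binds thioredoxin, the small protein that keeps other proteins reduced. MLXIP, also called MondoA, pairs with MLX. When glucose 6-phosphate accumulates, the pair enters the nucleus and activates Txnip and Arrdc4, which makes these genes a transcriptional readout of glucose phosphate in many cell types. T cells that leave quiescence raise glucose uptake and are known to lower Txnip.

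The promoter windows of the 3 alpha-arrestin genes are shown because the glucose-sensing pair is known to act through a paired sequence next to the Txnip start, and because these genes differed in how they moved across the groups. Each window runs from 250 bases before to 50 bases after an annotated start in RefSeq, build GRCm38.p6, and is written 5′ to 3′ on the gene's own strand. The Txnip window is chr3:96557707-96558006 on the plus strand, the Arrdc3 window is chr13:80883134-80883433 on the plus strand, and the Arrdc4 window is chr7:68749189-68749488 on the minus strand. Capitals mark matches to any of 4 motifs.
Txnip: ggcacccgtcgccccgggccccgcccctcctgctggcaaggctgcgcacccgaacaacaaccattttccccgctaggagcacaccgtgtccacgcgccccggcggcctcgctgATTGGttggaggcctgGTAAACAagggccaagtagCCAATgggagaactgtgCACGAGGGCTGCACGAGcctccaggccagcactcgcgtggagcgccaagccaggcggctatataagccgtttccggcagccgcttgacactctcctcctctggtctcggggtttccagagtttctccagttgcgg
Arrdc3: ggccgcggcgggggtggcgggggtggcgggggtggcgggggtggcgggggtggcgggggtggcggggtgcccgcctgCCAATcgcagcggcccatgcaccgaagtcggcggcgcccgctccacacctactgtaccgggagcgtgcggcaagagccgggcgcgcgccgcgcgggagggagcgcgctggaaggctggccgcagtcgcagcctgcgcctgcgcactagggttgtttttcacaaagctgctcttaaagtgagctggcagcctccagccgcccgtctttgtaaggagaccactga
Arrdc4: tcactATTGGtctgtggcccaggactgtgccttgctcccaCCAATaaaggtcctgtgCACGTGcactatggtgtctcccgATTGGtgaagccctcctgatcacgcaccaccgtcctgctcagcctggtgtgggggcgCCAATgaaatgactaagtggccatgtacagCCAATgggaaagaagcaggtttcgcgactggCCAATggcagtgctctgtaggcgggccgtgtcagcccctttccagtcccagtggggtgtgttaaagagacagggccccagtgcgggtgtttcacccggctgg
The motifs were the paired carbohydrate-response type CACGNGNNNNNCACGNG, the E-box CACGTG, the forkhead core GTAAACA and the CCAAT box CCAAT, each searched on both strands. CACGTG can also form either side of the paired motif, and its reverse complement is itself, so a match was counted once by position. The paired motif occurred in 16 of 32851 RefSeq promoter windows of the same length, or 0.0487%. CACGTG occurred in 7.15% of the windows, GTAAACA in 3.65% and CCAAT in 37.4%.

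The Txnip window held the paired motif as CACGAGGGCTGCACGAG, at positions -85 to -69 from the start. It also held GTAAACA at -121 to -115 and a CCAAT box on each side of that match. The Arrdc4 window had a CACGTG at -193 to -188 and 6 CCAAT boxes. In the Arrdc3 window shown 1 CCAAT box was the sole match. Arrdc3 has other annotated starts in RefSeq: the window from 80883172 also held 1 CCAAT box alone, and that from 80885845 held no match. All 5 genes had a RefSeq window. That of Mlx held CACGTG at -40 to -35 and 2 CCAAT boxes, and that of Mlxip held 2 CCAAT boxes. These matches describe the letters of the windows and are not evidence of binding in these cells.

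**Figure D1:**
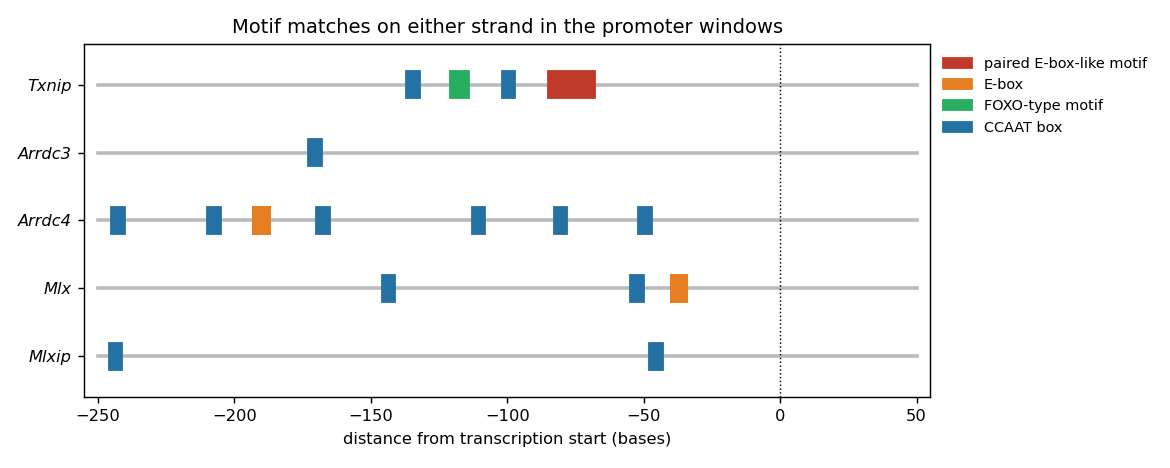
Positions of the 4 motifs in the RefSeq promoter windows of the 5 genes, in bases from the annotated start, with negative positions before it. For Arrdc3 the window whose sequence is given is drawn. The paired motif is the red block in the Txnip window, CACGTG (E-box) is orange in those of Arrdc4 and Mlx, and GTAAACA (FOXO-type) is green.

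Library totals ranged from 2397304 to 5030643 counts, and the shallowest library was TEPP-46 replicate 4. The 10 T cell marker genes summed to 7627 to 9318 counts per 1000000 of the scaled library (CPM) in TEPP-46 libraries, 4921 to 6089 CPM in DMSO controls and 5819 to 9806 CPM in resting libraries, each marker being detected in each group. Markers of other cells were present and moved with the groups. The 10 B cell markers summed to 748.3 to 1339 CPM with TEPP-46, 231.3 to 258.9 CPM with DMSO and 2574 to 3980 CPM at rest, with Blk at 0 in the DMSO controls. The 10 myeloid markers summed to 129.1 to 221 CPM with TEPP-46, 85.71 to 97.93 CPM with DMSO and 176.2 to 254 CPM at rest, and the defining genes Adgre1, S100a8, S100a9 and Mpo were at 0 in the DMSO controls and S100a8 with TEPP-46. The 6 platelet and red cell markers summed to 16.5 to 271.4 CPM with TEPP-46, 0.960 to 4.906 CPM with DMSO and 2.812 to 9.771 CPM at rest, with the haemoglobin genes Hbb-bs and Hba-a1 at 0 in both activated groups, and with Ppbp and Gp9 at 0 in DMSO and resting libraries and Pf4 in DMSO. The 6 natural killer markers covered 73.1 to 131.7 CPM with TEPP-46, 74.87 to 128.2 CPM with DMSO and 26.35 to 104.3 CPM at rest, with Klrb1c at 0 with TEPP-46 and Ncr1 and Klre1 with DMSO. On average most of this sum was Nkg7, at 58.98 ± 6.431 CPM with TEPP-46, 97.76 ± 27.12 CPM with DMSO and 53.04 ± 36.75 CPM at rest. Klrk1 averaged 27.2 ± 23.53 CPM with TEPP-46, 1.805 ± 0.1845 CPM with DMSO and 5.783 ± 2.282 CPM at rest, and Klrd1 had 130 counts over the TEPP-46 libraries, 1 over the DMSO controls and 70 over the resting libraries. Both rose in TEPP-46 against DMSO (edgeR, adjusted p = 0.00598 and 0.00294), in all 9 leave-one-out fits. The 2 CD8 genes stayed between 3.882 and 22.18 CPM in every library. The part of these other cells in the results below was not tested, and in bulk RNA fewer cells of a type cannot be told apart from less RNA per cell. TEPP-46 libraries were the least alike, with correlations of 0.818 to 0.913 in log2 CPM, against 0.972 to 0.983 among DMSO controls and 0.937 to 0.977 among resting libraries, where replicate 1 stood apart.

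Activated T cells given TEPP-46 had a Txnip level 3.87-fold that of activated cells given DMSO, and their Txnip level overlapped that of resting cells. Mlxip was higher with TEPP-46 than in either other group, Arrdc4 was higher in both activated groups than at rest, Arrdc3 was lower in DMSO controls than at rest, and Mlx passed the test in no comparison. In TEPP-46 against DMSO, 2 of the 5 genes rose, Txnip and Mlxip, and the other 3 did not pass the test; over all tested genes 9.72% rose, 6.43% fell and 16.2% changed in either direction. In DMSO against rest, 1 of 5 rose, Arrdc4, where the share over all genes was 15.5%, and 2 of 5 fell, Txnip and Arrdc3, where it was 15.8%; 31.2% of all genes changed in either direction. In TEPP-46 against rest, Arrdc4 and Mlxip rose, and the share over all genes was 6.37%. These calls are from edgeR's quasi-likelihood test over all 9 libraries at a Benjamini-Hochberg adjusted p below 0.05. The members' median log2 fold change was 1.02 in TEPP-46 against DMSO, where the median of all genes was 0.04, and -0.54 in DMSO against rest, where it was -0.04. When any 1 library was left out, 1 to 3 of the 5 genes passed in TEPP-46 against DMSO and 2 to 4 in DMSO against rest. Over all genes these omissions gave 395 to 4407 calls in the first comparison and 2316 to 5194 in the second. Without TEPP-46 replicates 4 and 5, which leaves 1 treated library assumed to vary like the others, neither Txnip nor Mlxip passed against DMSO, and 548 of all genes did, against 2025 with all libraries. Of those 2025 genes 60.2% rose, a share that was 43.8% of 2104 called genes when libraries were scaled by their totals alone. Of 3914 genes called in DMSO against rest 49.5% rose, and 58.2% of 3835 with that scaling.

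**Figure D2:**
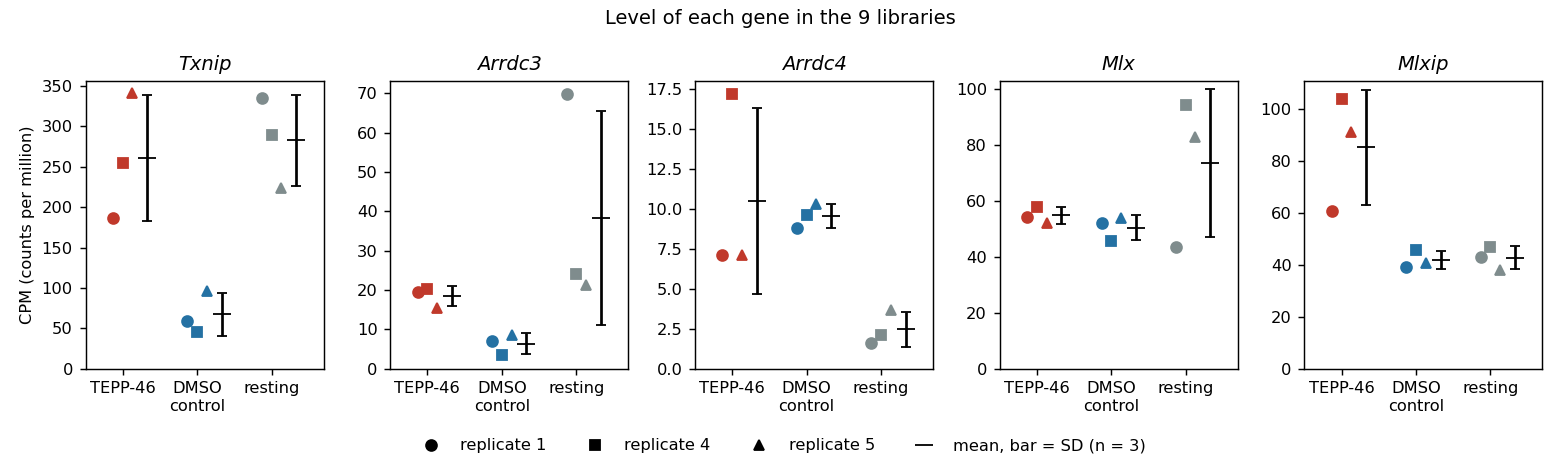
CPM of the 5 genes in each of the 9 libraries, each gene on its own linear axis from 0, with TEPP-46 libraries on the left, DMSO controls in the middle and resting libraries on the right; point shapes mark replicates, and bars the mean with its SD (n = 3). Txnip in TEPP-46 libraries lies at 186.2 to 341.3 CPM, above the DMSO controls at 45.84 to 96.8 CPM.

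Txnip (ENSMUSG00000038393.14) lies on chromosome 3 at 96557957 to 96561883, plus strand. It had 186.2, 255.0 and 341.3 CPM in TEPP-46 replicates 1, 4 and 5, against 59.6, 45.84 and 96.8 CPM in the DMSO controls. Every TEPP-46 library was above every DMSO library, and the libraries of these groups did not overlap, in either direction, for 39.7% of all tested genes. The means were 260.8 ± 77.73 CPM with TEPP-46 and 67.42 ± 26.36 CPM with DMSO (SD, n = 3 each), a log2 fold change of 1.95 ± 0.33 (SE; edgeR, adjusted p = 0.00606), or 3.87-fold with a 95% interval of 2.34 to 6.39. This call held when each of the 9 libraries was left out in turn, with the highest adjusted p at 0.0373. The lowest TEPP-46 value was that of replicate 1, and without TEPP-46 replicates 4 and 5 the log2 difference was 1.475 (edgeR, adjusted p = 0.0647).

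Resting libraries held 335.9, 288.9 and 223.7 CPM of Txnip, a mean of 282.8 ± 56.37 CPM (SD, n = 3). The DMSO controls were all below them, and Txnip fell by 2.07 ± 0.33 on the log2 scale in DMSO controls against resting cells (edgeR, adjusted p = 0.0017), which is 4.20-fold lower. This direction held in all 9 leave-one-out fits, with adjusted p up to 0.0115. DMSO and resting libraries did not overlap for 59.2% of all tested genes. TEPP-46 and resting libraries overlapped, with a log2 difference of -0.12 ± 0.31 and a 95% interval of -0.81 to 0.58 (edgeR, adjusted p = 0.849), which spans 0.570 to 1.49 times the resting level. The comparisons of TEPP-46 with DMSO and of DMSO with rest share the DMSO libraries. B cell and myeloid marker sums, given above, were also lower in every DMSO library than in every TEPP-46 or resting library.

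The antisense gene Gm15441 on the opposite strand shares 606 exonic bases with Txnip, and no source used here says whether counting used strand, so reads from that stretch may belong to either. Gm15441 had 50.6, 40.75 and 89.29 CPM with TEPP-46, 13.98, 14.16 and 23.44 CPM with DMSO and 93.94, 62.06 and 51.92 CPM at rest. Its log2 fold changes were 1.81 ± 0.37 in TEPP-46 against DMSO (edgeR, adjusted p = 0.0125) and -2.01 ± 0.37 in DMSO against rest (edgeR, adjusted p = 0.00342). Txnip had 3.24 to 6.26 counts for each Gm15441 count across the 9 libraries.

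Arrdc3 (ENSMUSG00000074794.9; chromosome 13, 80883384 to 80896042, plus strand) encodes an alpha-arrestin known for body weight control in mice. It had 19.53, 20.17 and 15.53 CPM with TEPP-46, against 7.113, 3.36 and 8.571 CPM with DMSO. The means were 18.41 ± 2.513 CPM with TEPP-46 and 6.348 ± 2.688 CPM with DMSO (SD, n = 3 each). The groups did not overlap, as for 39.7% of all tested genes, and the log2 difference of 1.53 ± 0.51 did not pass the test (edgeR, adjusted p = 0.0658). The DMSO value rests on 14 to 34 counts per library. Leaving out resting replicate 1, which touches this comparison through the shared spread, gave an adjusted p of 0.0242, within a leave-one-out range of 0.0242 to 0.199, and DESeq2 gave 0.0285.

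At rest Arrdc3 had 69.8, 24.03 and 21.2 CPM, with replicate 1 far above the other resting libraries. Even so the DMSO controls were all lower, and Arrdc3 fell by 2.59 ± 0.51 on the log2 scale in DMSO controls against resting cells (edgeR, adjusted p = 0.00479). Across the 9 leave-one-out fits the log2 fold change stayed between -2.89 and -1.83 and the call held. Against rest the TEPP-46 libraries were all lower, with a log2 difference of -1.06 ± 0.48 and an interval of -2.13 to 0.01 that did not pass (edgeR, adjusted p = 0.193). Without resting replicate 1 the difference was -0.30. Over all tested genes, DMSO and resting libraries did not overlap for 59.2%, and TEPP-46 and resting libraries for 26.8%.

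Arrdc4 (ENSMUSG00000042659.15; chromosome 7, 68736995 to 68749241, minus strand) is the other alpha-arrestin that the MondoA and MLX pair is known to activate. Its order of groups was unlike that of Txnip. It had 7.15, 17.23 and 7.118 CPM with TEPP-46 and 8.83, 9.601 and 10.34 CPM with DMSO, and these groups overlapped. The log2 difference was 0.11 ± 0.46 with a 95% interval of -0.91 to 1.14 (edgeR, adjusted p = 0.882), and the TEPP-46 mean rested on replicate 4, without which the difference was -0.42.

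Resting libraries had the least Arrdc4, at 1.609, 2.113 and 3.678 CPM, from 8 to 17 counts each. Both activated groups lay above them in every library. Arrdc4 rose by 1.94 ± 0.49 on the log2 scale in DMSO controls against resting cells (edgeR, adjusted p = 0.0144) and by 2.06 ± 0.50 in TEPP-46 cells against resting cells (edgeR, adjusted p = 0.03). TEPP-46 and resting libraries did not overlap for 26.8% of all tested genes, and DMSO and resting libraries for 59.2%. The first call was lost without resting replicate 4 (adjusted p = 0.0555) or DMSO replicate 5 (adjusted p = 0.0505), in a range of 0.00364 to 0.0555. The second was lost without any 1 of the resting or DMSO libraries, in a range of 0.0197 to 0.11, and in a fit of TEPP-46 and resting libraries alone (0.101).

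Txnip and Arrdc4 thus differed in their order of groups. Per Arrdc4 count there were 14.8 to 47.95 Txnip counts with TEPP-46, 4.775 to 9.366 with DMSO and 60.82 to 208.8 at rest, and the 3 groups did not overlap in this ratio. The resting ratios rest on 8 to 17 Arrdc4 counts per library, and the share of all gene pairs with such a separation was not computed.

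Mlxip (ENSMUSG00000038342.15; chromosome 5, 123394798 to 123457932, plus strand) encodes MondoA, the glucose-sensing member of the transcription factor pair. It had 60.78, 103.8 and 90.91 CPM with TEPP-46, 39.0, 45.84 and 40.84 CPM with DMSO and 42.85, 47.01 and 38.08 CPM at rest. All TEPP-46 libraries, averaging 85.15 ± 22.07 CPM (SD, n = 3), were above all others, and the DMSO controls at 41.89 ± 3.542 CPM and resting libraries at 42.64 ± 4.469 CPM overlapped. TEPP-46 libraries did not overlap the DMSO controls for 39.7% of all tested genes, nor the resting libraries for 26.8%. The share of genes separated from both groups was not computed. Mlxip rose by 1.02 ± 0.24 on the log2 scale in TEPP-46 cells against DMSO controls (edgeR, adjusted p = 0.0201), which is 2.03-fold with an interval of 1.41 to 2.92. It rose by 0.996 ± 0.24 against resting cells (edgeR, adjusted p = 0.0278). DMSO against rest gave a log2 difference of -0.02 ± 0.24, with an interval of -0.55 to 0.50 (edgeR, adjusted p = 0.947).

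The Mlxip calls were less steady than that of Txnip. Against DMSO the call was lost without DMSO replicate 1 (adjusted p = 0.0862), 4 (0.0671) or 5 (0.089) or TEPP-46 replicate 5 (0.0697), in a leave-one-out range of 0.00178 to 0.089. Against rest it was lost without TEPP-46 replicate 5 or any 1 of the resting or DMSO libraries, in a range of 0.00585 to 0.111, and in a fit of TEPP-46 and resting libraries alone (0.0918). Without TEPP-46 replicates 4 and 5 the log2 difference from DMSO was 0.55 (edgeR, adjusted p = 0.2). The same 2 libraries were high for the nuclear RNA Malat1, which had 2532, 12290 and 12820 CPM in TEPP-46 replicates 1, 4 and 5, against 2067, 4120 and 3813 CPM with DMSO and 8385, 4373 and 5292 CPM at rest. Summed ribosomal protein RNA was highest in TEPP-46 replicate 1 and lowest in replicate 4, at 38760, 9376 and 19380 CPM in TEPP-46 replicates 1, 4 and 5, against 24370 to 31570 CPM with DMSO and 17470 to 24350 CPM at rest, a range that holds TEPP-46 replicate 5. The part of these shifts in the Mlxip result was not tested. Mlxip shares 267 exonic bases with the antisense gene Gm15747, which averaged 6.06 CPM with TEPP-46, 3.769 CPM with DMSO and 3.584 CPM at rest.

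Mlx (ENSMUSG00000017801.15; chromosome 11, 101087277 to 101092207, plus strand) encodes the common partner of both Mondo proteins. It had 54.45, 57.98 and 52.09 CPM with TEPP-46, 52.0, 45.6 and 53.94 CPM with DMSO and 43.65, 94.28 and 82.86 CPM at rest. Resting replicate 1 was below every activated library, while resting replicates 4 and 5 were above every activated library. The log2 differences were 0.12 ± 0.28 in TEPP-46 against DMSO (interval -0.49 to 0.73; edgeR, adjusted p = 0.788), -0.54 ± 0.27 in DMSO against rest (adjusted p = 0.156) and -0.42 ± 0.27 in TEPP-46 against rest (adjusted p = 0.362). Without resting replicate 1, Mlx in DMSO against rest was -0.81 and passed (edgeR, adjusted p = 0.0165), in a leave-one-out range of 0.0165 to 0.456. Mlx shares 385 exonic bases with Psmc3ip on the opposite strand, whose groups overlapped in every comparison. There were 1.116 to 1.79 Mlxip counts per Mlx count with TEPP-46, 0.75 to 1.005 with DMSO and 0.460 to 0.982 at rest, so TEPP-46 libraries were above all others in this ratio of counts, which is not corrected for length. How many of all gene pairs show such a separation was not computed.

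**Figure D3:**
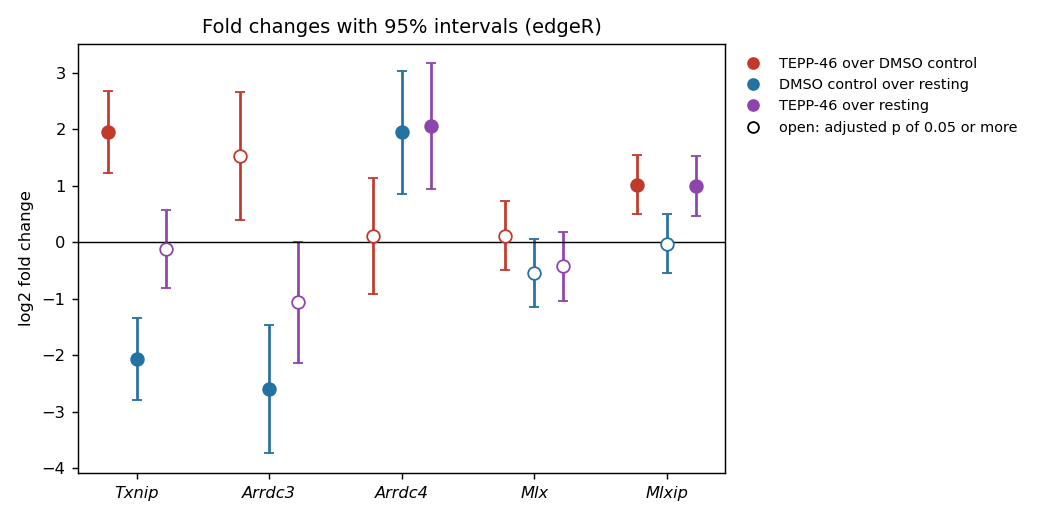
Log2 fold changes of the 5 genes in the 3 comparisons, with 95% confidence intervals from edgeR; filled points passed an adjusted p of 0.05. Txnip is at 1.95 in TEPP-46 against DMSO and at -2.07 in DMSO against rest, while Arrdc4 is at 0.11 and 1.94.

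Divided by exon length, Txnip led in TEPP-46 cells at 83.5 ± 24.9 CPM per kilobase, followed by Mlx at 27.4 and Mlxip at 10.2, with Arrdc3 at 2.94 and Arrdc4 at 2.60 overlapping each other (means, n = 3). In DMSO controls Mlx at 25.3 CPM per kilobase and Txnip at 21.6 overlapped, ahead of Mlxip at 5.03, Arrdc4 at 2.37 and Arrdc3 at 1.01. At rest Txnip again led at 90.6 CPM per kilobase, Mlx followed at 36.8, Arrdc3 at 6.12 and Mlxip at 5.12 overlapped, and Arrdc4 was last at 0.611. By length Arrdc3 was thus below Arrdc4 in every DMSO library and above it in every resting library.

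Candidates for likeness to each member were 8683 tested genes with a mean of at least 10 CPM. Members and genes with predicted-gene, clone or mitochondrial names were left out, so the antisense gene Gm15441 was not ranked. The genes that followed each member most closely were sought by root mean square difference in log2 CPM over the 9 libraries, each profile centred. For Txnip these were Slc28a2, a nucleoside transporter gene, at 0.25, Sgms1, a sphingomyelin synthase gene, at 0.279, the cytokine receptor kinase gene Jak1 at 0.30, and F2rl1, Trim12a and Nrbp1 at 0.32 to 0.343, where the median over all candidates was 1.105. Slc28a2 averaged 170.9 ± 55.12 CPM with TEPP-46, 39.97 ± 5.33 CPM with DMSO and 160.1 ± 17.76 CPM at rest (SD, n = 3 each). For Mlxip they were Celf2 at 0.137, Nfatc1 at 0.147, Med12 at 0.153 and Irf2 at 0.181, against a median of 0.704. Mtmr10 at 0.371, Pon2 at 0.421 and Med11 and Tsc22d1 at 0.47 were closest to Arrdc3, with a median of 1.196. Cox20, Sh3bgrl3, Sipa1 and Wdr83os, at 0.142 to 0.161, were closest to Mlx, with a median of 0.584. Between members, Txnip and Arrdc3 differed by 0.542, Mlx and Mlxip by 0.647 and Txnip and Arrdc4 by 1.706. Arrdc4 was below the 10 CPM mean set for this search.

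Of 6 alpha-arrestin genes in all, 5 were tested and Arrdc5 had no count in any library. In TEPP-46 against DMSO Txnip was the 1 that passed, where 9.72% of all tested genes rose, and the list's median log2 fold change was 0.25. In DMSO against rest 1 rose and 2 fell, as given above, with a median of -0.47. There 15.5% of all genes rose and 15.8% fell. Arrdc1 averaged 128.3 ± 23.3 CPM with TEPP-46, 107.7 ± 9.20 CPM with DMSO and 144.9 ± 3.59 CPM at rest (SD, n = 3 each), and Arrdc2 averaged 14.7 ± 4.02 CPM with TEPP-46, 16.3 ± 0.777 CPM with DMSO and 22.6 ± 2.07 CPM at rest. Neither passed in any comparison, with adjusted p of 0.383 and 0.738 in TEPP-46 against DMSO (edgeR). Among 3 tested beta and visual arrestins, 1 rose in TEPP-46 against DMSO, where 9.72% of all tested genes rose. It was Sag, the visual arrestin gene, at 9.92 ± 4.75 CPM against 2.47 ± 0.553 CPM, the latter from 30 counts over the 3 DMSO libraries. Its log2 fold change was 2.00 ± 0.48 (edgeR, adjusted p = 0.0218), a call that was lost without any 1 of the DMSO libraries (adjusted p up to 0.098). The beta-arrestin genes Arrb1 and Arrb2, adaptors that switch off G protein-coupled receptors, were at 49.1 and 204.9 CPM with TEPP-46 and 46.6 and 254.2 CPM with DMSO and did not pass.

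In the MondoA, MLX and MAX network of transcription factors, 10 of 13 genes were tested, and in TEPP-46 against DMSO 3 rose and 1 fell, where 9.72% of all tested genes rose and 6.43% fell. The median log2 fold change of the 10 was 0.22. The number called was 6 without TEPP-46 replicate 1 and 1 without TEPP-46 replicate 5 or a DMSO library, and 1 to 6 over all single omissions. Calls over all genes ranged from 395 to 4407 in these omissions. Mxd1, which encodes a MAX partner that represses MYC targets, rose to 263.0 ± 65.7 CPM with TEPP-46, against 79.5 ± 2.89 CPM with DMSO and 84.8 ± 13.3 CPM at rest (log2 fold change against DMSO 1.73 ± 0.23; edgeR, adjusted p = 0.0027). This call held in all 9 leave-one-out fits. Mxd4, from the same family, rose to 151.7 ± 50.0 CPM with TEPP-46, against 66.6 ± 9.95 CPM with DMSO (1.19 ± 0.27; edgeR, adjusted p = 0.0194), a call that was lost without any 1 of the DMSO libraries or TEPP-46 replicate 5 (highest adjusted p 0.0866). Without TEPP-46 replicates 4 and 5 the Mxd1 call held, and the Mxd4 difference was 0.51 and did not pass (edgeR, adjusted p = 0.261), and neither did that of Myc, at -1.195 (0.387). Mxd4 shares 514 exonic bases with an antisense gene. The fall was that of Myc, which was named after its values were seen, at 148.8 ± 123 CPM with TEPP-46 and 670.7 ± 266 CPM with DMSO (-2.17 ± 0.65; edgeR, adjusted p = 0.0455), a call that held only where replicate 1 of the resting or of the TEPP-46 libraries was left out (2 of 9 fits; highest adjusted p 0.153). Activation with DMSO gave 3 rises among the 10 against rest, where 15.5% of all genes rose and single omissions left 1 to 3 calls: Mxi1 by 1.68 ± 0.36, Mxd3 by 1.64 ± 0.45 and Myc by 1.88 ± 0.64 on the log2 scale (edgeR, adjusted p = 0.00647, 0.0205 and 0.0464). The Mxi1 call held in 9 of 9 leave-one-out fits, the Mxd3 call failed when a DMSO library or resting replicate 1 or 5 was omitted (highest adjusted p 0.0744), and the Myc call without these or TEPP-46 replicate 5 (up to 0.153). Mxi1 shares 194 exonic bases and Mxd3 105 with a gene on the opposite strand. Mlxipl, which encodes ChREBP, the second Mondo protein, had 1 count over the 3 TEPP-46 libraries, 9 over the DMSO controls and 3 over the resting libraries, too few to test.

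Genes listed as MondoA or ChREBP targets behaved unalike. Of 14, 8 were tested, and in TEPP-46 against DMSO Txnip was the 1 that passed, with a list median of 0.21. Leaving out TEPP-46 replicate 1 gave 4 calls in this comparison, 1 rise and 3 falls. Over all genes 9.72% rose and 6.43% fell with all libraries, and single omissions gave 395 to 4407 calls. The lipid synthesis genes Fasn and Acaca were at 116.0 ± 24.2 and 12.1 ± 2.48 CPM with TEPP-46 and 150.8 ± 10.2 and 24.5 ± 6.61 CPM with DMSO, with adjusted p of 0.233 and 0.0669 (edgeR). The pentose phosphate gene Tkt had 210.9 ± 96.2 CPM with TEPP-46 and 407.2 ± 39.4 CPM with DMSO (edgeR, adjusted p = 0.0667). Against rest 4 of the 8 rose and 2 fell in DMSO controls, where 15.5% of all genes rose and 15.8% fell. The number called was 2 without DMSO replicate 5, 4 without resting replicate 4, and 5 to 7 with another single library omitted. Fasn rose by 1.01 ± 0.21, Acaca by 1.35 ± 0.34 and Tkt by 1.15 ± 0.32 on the log2 scale, besides Arrdc4, while Klf11, which encodes a repressor of transcription, fell by 1.29 ± 0.30, besides Txnip (edgeR, adjusted p = 0.00619, 0.0136, 0.0214 and 0.00963 for these 4). The Fasn call held in 9 of 9 leave-one-out fits. The Acaca call was lost without resting replicate 4 or 5 or DMSO replicate 1 or 5 (adjusted p up to 0.0619), the Tkt call without resting replicate 1 or DMSO replicate 4 or 5 (up to 0.0687), and the Klf11 call without DMSO replicate 5 (0.0511). Slc2a2 and G6pc, known as targets in liver, had no count, and Pklr had 0 counts over the TEPP-46 libraries, 4 over the DMSO controls and 68 over the resting libraries.

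**Figure D4:**
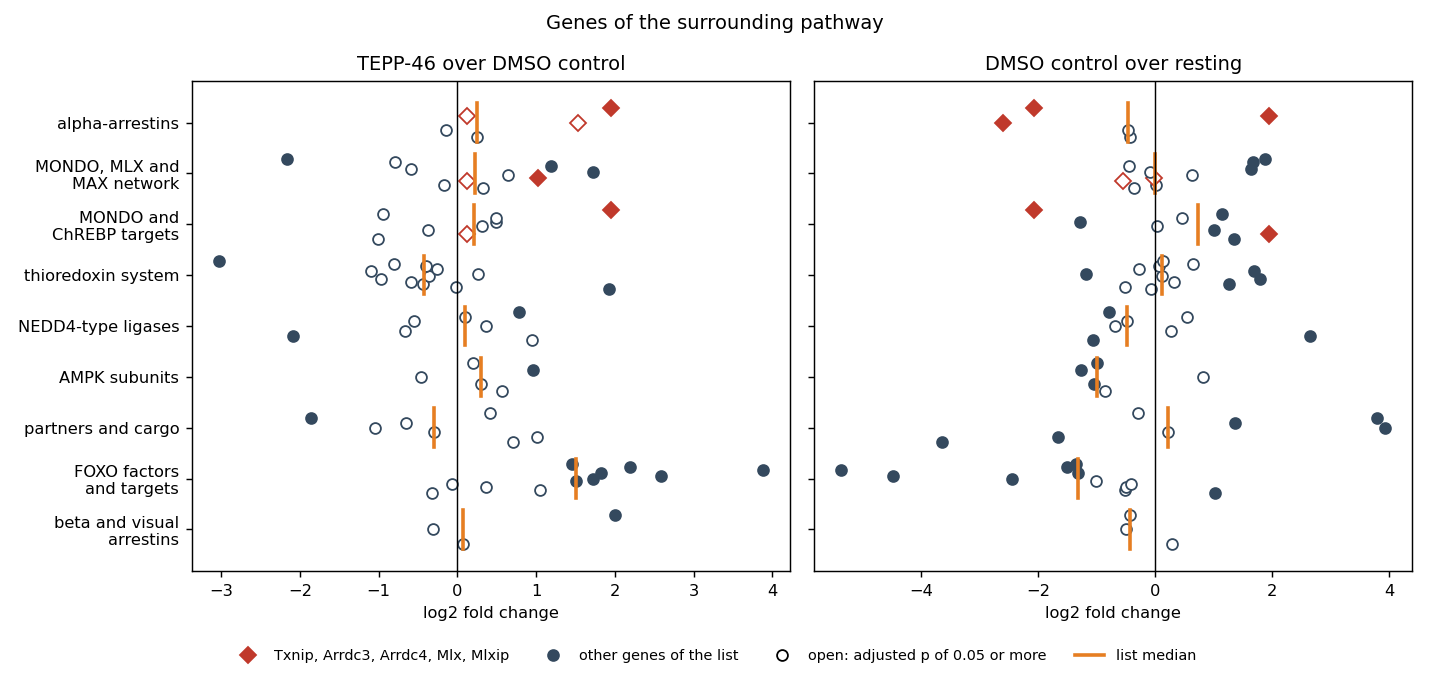
Log2 fold changes of the tested genes of each related list, in TEPP-46 against DMSO on the left and in DMSO against rest on the right; diamonds are the 5 genes, filled points passed an adjusted p of 0.05 and orange lines mark list medians. The FOXO list has its median at 1.51 in TEPP-46 against DMSO and at -1.33 in DMSO against rest. The lists were chosen with earlier results of these data known.

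Among the proteins that TXNIP and its relatives work on, the glucose transporter gene Slc2a3 had the smallest adjusted p. It had 346.7 ± 13.2 CPM with TEPP-46, 1256 ± 216 CPM with DMSO and 90.8 ± 28.5 CPM at rest (SD, n = 3 each). Slc2a3 fell by 1.86 ± 0.26 on the log2 scale in TEPP-46 against DMSO (edgeR, adjusted p = 0.00288), in all 9 leave-one-out fits, and rose by 3.79 ± 0.28 in DMSO against rest (edgeR, adjusted p = 8.24e-05). Slc2a1, whose product GLUT1 TXNIP removes from the cell surface, had 74.0 ± 21.2 CPM with TEPP-46, 116.4 ± 28.9 CPM with DMSO and 44.9 ± 3.15 CPM at rest, and passed in DMSO against rest alone of the 2 comparisons with DMSO (1.37 ± 0.26; edgeR, adjusted p = 0.0042). In TEPP-46 against DMSO its log2 difference was -0.65 ± 0.26 (adjusted p = 0.108). Ddit4, a stress-induced inhibitor of mTORC1 whose protein binds TXNIP, had 264.0 ± 96.6 CPM with TEPP-46, 545.2 ± 278 CPM with DMSO and 35.7 ± 10.7 CPM at rest. It rose by 3.94 ± 0.48 in DMSO against rest (edgeR, adjusted p = 0.00061). Of the 7 tested genes of this list, 1 fell in TEPP-46 against DMSO, where 6.43% of all genes fell, with a median of -0.29, and 3 rose and 2 fell in DMSO against rest, where the shares over all genes were 15.5% and 15.8%, with a median of 0.22. Without TEPP-46 replicate 1 the first comparison had 4 calls, 1 rise and 3 falls, where single omissions gave 395 to 4407 calls over all genes.

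The NEDD4-family ligases, which alpha-arrestins recruit and which degrade TXNIP in turn, had 7 tested genes, of which 1 rose and 1 fell in TEPP-46 against DMSO, with a median of 0.10; over all genes 9.72% rose and 6.43% fell. With 1 library omitted, 1 to 3 of the 7 were called, with 3 called without TEPP-46 replicate 1 or resting replicate 1. Such omissions gave 395 to 4407 calls over all genes. Nedd4 fell to 22.1 ± 6.44 CPM with TEPP-46, against 94.3 ± 14.4 CPM with DMSO and 15.1 ± 6.79 CPM at rest (log2 fold change against DMSO -2.09 ± 0.37; edgeR, adjusted p = 0.00758), in all 9 leave-one-out fits. Wwp2 rose to 176.0 ± 40.1 CPM with TEPP-46, against 102.3 ± 7.53 CPM with DMSO (0.78 ± 0.22; edgeR, adjusted p = 0.0382), a call that held in 2 of 9 leave-one-out fits, those without resting replicate 1 or TEPP-46 replicate 1. Neither call was left without TEPP-46 replicates 4 and 5, at -1.67 for Nedd4 (edgeR, adjusted p = 0.0968) and 0.36 for Wwp2 (0.379). Itch, whose product ubiquitinates TXNIP, had 101.2 ± 32.3 CPM with TEPP-46, 52.4 ± 12.1 CPM with DMSO and 109.9 ± 25.1 CPM at rest, with an adjusted p of 0.0529 in TEPP-46 against DMSO and of 0.0206 in DMSO against rest, where it fell by 1.07 ± 0.30 on the log2 scale (edgeR). Among the 7, the 1 that rose in DMSO against rest was Nedd4, by 2.65 ± 0.38 (edgeR, adjusted p = 0.0011), and Itch and Wwp2 were the 2 that fell, where 15.5% of all genes rose and 15.8% fell; single omissions left 1 to 4 calls. The Nedd4 call held in all 9 leave-one-out fits, the Itch call was lost without resting replicate 1 or DMSO replicate 1 or 5 (adjusted p up to 0.0882), and the Wwp2 call without resting replicate 1 or any 1 of the DMSO libraries (up to 0.086). Smurf1 had 19.9 ± 4.48 CPM with TEPP-46, 15.4 ± 2.43 CPM with DMSO and 24.9 ± 4.02 CPM at rest and did not pass in either comparison.

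AMP-activated kinase, which phosphorylates TXNIP and marks it for degradation, had 5 tested subunit genes, with a median log2 fold change of 0.30 in TEPP-46 against DMSO and -0.99 in DMSO against rest. Prkag1, a regulatory subunit, rose to 136.4 ± 27.9 CPM with TEPP-46, against 70.3 ± 3.94 CPM with DMSO and 168.1 ± 10.98 CPM at rest (0.96 ± 0.20; edgeR, adjusted p = 0.0135), and the other 4 did not pass; 9.72% of all genes rose. The Prkag1 call was lost without any 1 of the DMSO libraries or TEPP-46 replicate 5 (highest adjusted p 0.0712). In DMSO against rest 3 of the 5 fell, where 15.8% of all genes fell, and 1 to 4 fell with 1 library omitted: Prkag1 by 1.26 ± 0.20, Prkab1 by 1.05 ± 0.28 and Prkag2 by 0.99 ± 0.27 on the log2 scale (edgeR, adjusted p = 0.00178, 0.0188 and 0.0198). The Prkag1 call held in 9 of 9 leave-one-out fits, the Prkab1 call was lost without resting replicate 5 or any 1 of the DMSO libraries (up to 0.0768), and the Prkag2 call without resting replicate 4 or DMSO replicate 1 or 4 (up to 0.0848). The catalytic subunit gene Prkaa1 had 48.9 ± 25.6 CPM with TEPP-46, 33.2 ± 5.26 CPM with DMSO and 60.04 ± 9.34 CPM at rest.

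All 12 genes of the thioredoxin list, which TXNIP's redox partner belongs to, were tested, and 1 rose and 1 fell in TEPP-46 against DMSO, with a median of -0.42; over all genes 9.72% rose and 6.43% fell. Map3k5, which encodes the kinase ASK1 that thioredoxin holds inactive, rose to 80.0 ± 38.4 CPM with TEPP-46, against 20.9 ± 6.61 CPM with DMSO and 21.8 ± 7.51 CPM at rest (1.93 ± 0.42; edgeR, adjusted p = 0.0148). Txnrd3, a thioredoxin reductase gene, was at 0.981 ± 0.868 CPM with TEPP-46, against 8.83 ± 1.63 CPM with DMSO, and fell by 3.03 ± 0.67 on the log2 scale (edgeR, adjusted p = 0.0169). The Map3k5 call was lost without DMSO replicate 4 or 5 (adjusted p up to 0.0734), and the Txnrd3 call without any 1 of the DMSO libraries or TEPP-46 replicate 5 (up to 0.067). Omitting DMSO replicate 4 or 5 thus ended both calls. Omitting TEPP-46 replicate 1 gave 7 calls in the list, 1 rise and 6 falls, where single omissions gave 395 to 4407 calls over all genes. Neither passed without TEPP-46 replicates 4 and 5, at 1.11 for Map3k5 (edgeR, adjusted p = 0.171) and -2.39 for Txnrd3 (0.0818). In DMSO against rest 3 of the 12 rose and 1 fell, where the shares over all genes were 15.5% and 15.8% and single omissions left 2 to 4 calls, with Prdx2 up by 1.27 ± 0.30 and Prdx6 down, at a log2 fold change of -1.18 ± 0.26 (edgeR, adjusted p = 0.011 and 0.00776); both encode peroxiredoxins, which reduce peroxides.

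FOXO factors, which are known to act on Txnip in several cell types and to maintain quiescence genes in T cells, and their listed targets had 11 tested genes. The factor genes Foxo1, Foxo3 and Foxo4 averaged 182.6, 61.0 and 22.9 CPM with TEPP-46 and 141.8, 64.4 and 7.98 CPM with DMSO. Of these factor genes Foxo4 alone passed in TEPP-46 against DMSO, by 1.51 on the log2 scale (edgeR, adjusted p = 0.0425). Its call held in 2 of 9 leave-one-out fits, and its difference was 0.61 without TEPP-46 replicates 4 and 5. In TEPP-46 against DMSO 7 of the 11 rose, with a median log2 fold change of 1.51, where 9.72% of all genes rose and their median was 0.04. The list was chosen with earlier results of these data known, so setting it beside all genes is no test of it. In DMSO against rest 6 fell and 1 rose, with a median of -1.33, where 15.8% of all genes fell and 15.5% rose. The rise was that of Ccng2, by 1.03 on the log2 scale (edgeR, adjusted p = 0.036). Its call held in 5 of 9 leave-one-out fits and was lost without resting or DMSO replicate 4 or 5 (adjusted p up to 0.119). In the list as a whole, single omissions left 5 to 8 calls. S1pr1, the receptor for exit from lymphoid tissue, had 562.6 ± 280 CPM with TEPP-46, 38.1 ± 16.8 CPM with DMSO and 1575 ± 293 CPM at rest, a log2 fold change of 3.88 ± 0.48 in TEPP-46 against DMSO (edgeR, adjusted p = 0.00209). Sesn1, a stress-induced inhibitor of mTORC1, had 236.1 ± 65.3 CPM with TEPP-46, 85.9 ± 10.97 CPM with DMSO and 218.7 ± 23.5 CPM at rest (1.46 ± 0.23; edgeR, adjusted p = 0.00517). Il7r, the interleukin-7 receptor gene, rose by 1.72 ± 0.34 and Klf2, a quiescence factor gene, by 2.59 ± 0.73 in TEPP-46 against DMSO (edgeR, adjusted p = 0.0109 and 0.0386). In the leave-one-out fits the S1pr1 and Sesn1 calls held in 9 of 9, the Il7r call was lost without DMSO replicate 1 or 5 (adjusted p up to 0.0564), and the Klf2 call without resting replicate 4, TEPP-46 replicate 4 or any 1 of the DMSO libraries (up to 0.131). With single libraries left out 3 to 7 of the 11 rose, the fewest without a DMSO library, with 3 without replicate 1 or 5 and 4 without replicate 4. Without TEPP-46 replicates 4 and 5 there were 4; S1pr1 (2.71) and Sesn1 (1.11) still passed, and Il7r (1.33; edgeR, adjusted p = 0.0875) and Klf2 (2.63; 0.0978) did not. The B cell markers summed in the same order of groups, at 748.3 to 1339 CPM with TEPP-46, 231.3 to 258.9 CPM with DMSO and 2574 to 3980 CPM at rest, and their part in these values was not tested.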

How the data were processed

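The authors deposited a table of raw read counts per gene for 9 libraries, without normalization; the submitters' processing notes name the build GRCm38 and DESeq2. No source used here gives the aligner, the counter, its strand setting or its annotation release. Libraries were made with a low-input kit, per the labels' protocols. Of 47937 identifiers, 47224 were given a symbol by GENCODE M21 without the version suffix, 39106 of them with the same version. The 5 members and the related gene lists were chosen with earlier results of these data known.

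Counts were tested with edgeR 4.0.16 in R 4.3.3. Genes passing filterByExpr (at least 10 counts in enough libraries, at least 15 in total) were kept, 12536 of 23436 with any count. Library sizes were scaled by TMM, 1 quasi-likelihood model was fitted to the 3 groups (6 residual degrees of freedom, biological coefficient of variation 0.33), and p-values were Benjamini-Hochberg adjusted over all 12536 genes with a threshold of 0.05. CPM use the TMM-scaled library sizes, and log2 CPM a prior count of 2. No test was run over a list of genes as a whole. Besides the members, up to 4 genes per related list were named by smallest adjusted p over the 2 comparisons with DMSO. Not every gene so chosen is reported here. The fit was tested on simulated data with known changes. All groups were simulated with the same spread, so that test does not cover the wider spread among TEPP-46 libraries. Alternatives were DESeq2 1.42.0, limma 3.58.1 with voom, other scalings and filters, only the groups compared, a replicate block and left-out libraries. Precision is set by 3 libraries per group and by totals of 2397304 to 5030643 counts, where 3 counts equal 0.603 to 1.26 CPM. Reads carry no stated molecular identifiers, so these floors cover counting error only. Promoter windows came from RefSeq on GRCm38.p6, and no sequence was read from the libraries.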

Additional observations from a re-analysis of the deposited data

How the results depend on the processing

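Over all alternatives, 242 values of the 5 genes kept direction and side of the threshold, 27 lost and 4 gained the call and 12 changed sign; Txnip in TEPP-46 against DMSO and in DMSO against rest, and Arrdc3 in DMSO against rest, kept their calls in every single-library omission. Log2 fold changes follow, and causes were not tested where none is given. DESeq2 called 3057 genes in TEPP-46 against DMSO and 2090 in TEPP-46 against rest (2025 and 1289 with edgeR), and gave 1.51 for Arrdc3 against DMSO, which passed, as did 1.503 with no filter on low counts. Mlxip in DMSO against rest turned to 0.009 with DESeq2, 0.009 with RLE scaling and 0.082 with totals alone. Arrdc4 in TEPP-46 against DMSO turned to -0.059 with limma-voom, -0.004 with totals alone and -0.412 without TEPP-46 replicates 4 and 5, and Mlx to -0.016 with totals alone. Scaling by totals shifted the median of all genes by -0.131 in TEPP-46 against DMSO and by 0.107 in DMSO against rest. Without TEPP-46 replicates 4 and 5, 548, 6222 and 2406 genes were called in TEPP-46 against DMSO, DMSO against rest and TEPP-46 against rest, and calls were lost for Txnip (1.475) and Mlxip (0.546) against DMSO and for Arrdc4 (1.53) and Mlxip (0.518) against rest. With only the 2 groups in the fit, which has fewer libraries, 400 genes were called in TEPP-46 against rest, and Arrdc4 (2.08) and Mlxip (1.01) lost the call.

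Correlations of deviations between TEPP-46 and DMSO were 0.036 to 0.087 for same-numbered libraries and -0.098 to 0.034 for the others. Between TEPP-46 and rest they were -0.123 to -0.09 for same-numbered libraries and -0.037 to 0.123 for the others. Between DMSO and rest they were -0.026 to 0.089 and -0.108 to 0.039. These values do not settle whether same-numbered libraries share an origin, which the labels do not state. With the replicate block 1384, 3339 and 705 genes were called in TEPP-46 against DMSO, DMSO against rest and TEPP-46 against rest, and Arrdc4 (2.03) and Mlxip (0.97) against rest lost the call.

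Leaving out 1 library at a time gave 395 to 4407 called genes in TEPP-46 against DMSO, 2316 to 5194 in DMSO against rest and 426 to 1897 in TEPP-46 against rest. The ranges in TEPP-46 against DMSO were 0.856 to 1.206 for Mlxip, 1.219 to 1.798 for Arrdc3 and -0.423 to 0.328 for Arrdc4. In DMSO against rest they were 1.704 to 2.349 for Arrdc4, -0.808 to -0.329 for Mlx and -0.105 to 0.046 for Mlxip. In TEPP-46 against rest they were -0.359 to 0.069 for Txnip, 1.52 to 2.46 for Arrdc4 and 0.83 to 1.182 for Mlxip. Omitting immunoglobulin and the most abundant genes from the scaling, and the counts per list without libraries, were chosen after seeing the data. Low counts limit Arrdc4 at rest and Arrdc3 with DMSO.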
